A study of Mus musculus with 12 samples.

Results

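The p38 inhibitor SB203580 was added for 48 h to differentiating C2i-Myog muscle cells that received no doxycycline, and the RNA of these cells was compared with that of cells differentiated without the inhibitor. The comparison set the 3 SB arrays against the 3 control arrays, 6 of the 12 arrays of the study, over all transcript clusters that carry exactly 1 gene symbol. These were 21789 of 35557 clusters on the array and stood for 19938 genes. The other 6 arrays, Dox and SB+Dox, entered as a second set on which the same inhibitor was given beside doxycycline.

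C2i-Myog is a stable line derived from C2C12, a mouse myoblast line, and carries a doxycycline-inducible cDNA for Flag-tagged myogenin (Myog). All 4 groups came from this 1 line, all carry the inducible cDNA, and after growth in 10% serum all were switched for 48 h to 1% horse serum, to which transferrin and insulin were added, both at 10 µg/mL. Control cells received neither agent, SB cells received SB203580 at 10 µM, Dox cells received doxycycline at 0.2 µg/mL, and SB+Dox cells received both at those doses. The labels number 3 replicates per group and do not state whether each was its own culture, so a p-value here rests on the variation among these samples alone, and that variation may be technical. The differentiation of all 4 groups is read from the common protocol, because the control arrays carry the label "Control" alone.

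Skeletal myoblasts leave the cell cycle, switch on myogenin and the contractile genes, and fuse into myotubes when serum is withdrawn. The p38 alpha and beta kinases are activated in this process by the kinases MKK3 and MKK6 and act on the E-protein partners of MyoD, on MEF2 factors and on chromatin remodelling at muscle genes. SB203580 occupies the ATP site of p38 alpha and beta and blocks their activity, so it need not change their mRNA. The comparison asks what the inhibitor does to the differentiation programme when no extra myogenin is supplied.

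All values are log2 RMA signals, and a difference between 2 groups is a difference of log2 means, given ± its standard error from limma with n = 3 arrays per group. Adjusted p-values are Benjamini-Hochberg values from limma over all 21789 clusters, and a cluster or gene is called when its adjusted p lies under 0.05. Array medians ranged from 4.86 to 5.06, and the precision is limited by the number of arrays. Arrays of 1 group correlated at 0.992 to 0.996 in the control group and at 0.989 to 0.994 in the SB group. SB replicate 3 stood apart from the other SB arrays. On the second principal component of all 12 arrays it lay at -8.47, against 20.3 and 11.7 for SB replicates 1 and 2, and on the third at 15.2, against -11.4 and -7.72. Without it 1644 clusters were called in SB against control, and with it 1390.

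The cells were checked against markers. All 9 myoblast markers and all 12 myotube markers lay above the median of all 35557 clusters of the array in every group. Of the 9 myoblast markers 6 were called lower and 1, Myf5, higher, with a median change of -0.52, and of the 12 myotube markers 8 were called lower, with a median of -0.89. Macrophage markers lay mostly under the array median: 1 of 8 lay above it in control cells and 0 of 8 in SB cells. None of the 8 was called (limma, 0 also at an unadjusted p under 0.05). Of 10 satellite and reserve cell markers 1 (Cd34) was called higher and 1 (Megf10) lower, of 8 neural markers 1 was called higher, and of 5 measured osteoblast markers 1 was called lower. Of 8 fibroblast markers 1 was called higher and 1 lower, of 8 smooth muscle markers 2 were called lower, and of 8 adipocyte, 8 chondrocyte and 8 endothelial markers none was called (limma, 1, 1 and 0 at an unadjusted p under 0.05). The mean of the 12 myotube markers was 9.57, 9.8 and 9.55 on the control arrays and 8.2, 8.68 and 8.91 on the SB arrays. The 2 groups did not overlap, and the SB arrays spread more widely. In bulk RNA, fewer cells of a type and less RNA per cell cannot be told apart.

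The labels describe the SB cells as expressing neither p38 nor Myog, and the arrays go against this for the mRNA of p38 alpha. Mapk14, which encodes p38 alpha, was at 7.28, 7.29 and 7.06 on the control arrays and at 7.53, 7.42 and 7.62 on the SB arrays. The SB values all lay above the control values, with a difference of 0.31 ± 0.09 that did not pass the test (limma, adjusted p = 0.0635). Mapk14 was called higher in 4 alternative settings (limma, adjusted p = 0.0103 to 0.0434), and its adjusted p reached 0.218 in others. In SB+Dox against Dox, Mapk14 rose by 0.55 ± 0.09 (limma, adjusted p = 0.00115). Myog, the gene whose cDNA is inducible in this line, was at 9.66, 10.18 and 9.89 on the control arrays and at 6.93, 7.96 and 8.21 on the SB arrays. It was lower on every SB array, by 4.63-fold (-2.21 ± 0.25; limma, adjusted p = 9.39e-05), and still lay above the median of all clusters there.

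In SB against control, 547 clusters (2.51% of those tested) were higher and 843 (3.87%) were lower, 6.38% in all. The decreases were larger than the increases: 144 clusters fell by 2-fold or more, against 38 that rose by as much. The clusters that fell had a median control level of 7.63, against 6.3 for those that rose and 5.34 for all. On the SB arrays the medians were 6.91, 6.93 and 5.38. The clusters were chosen by a change that includes the control level, so the control medians alone do not show a difference in abundance. At the level of genes, each read from its brightest cluster, 517 rose (2.59%) and 809 fell (4.06%). The counts depended on single arrays: the total was 779 without SB replicate 2 and 910 without control replicate 1. Those called higher numbered 277 without SB replicate 2, 348 when control replicate 1 was left out and 320 without control replicate 3, and those called lower numbered 541 when SB replicate 1 was left out, 502 without SB replicate 2 and 538 without control replicate 2. With each array centred on its median, 336 were higher and 884 lower.

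**Figure D1:**
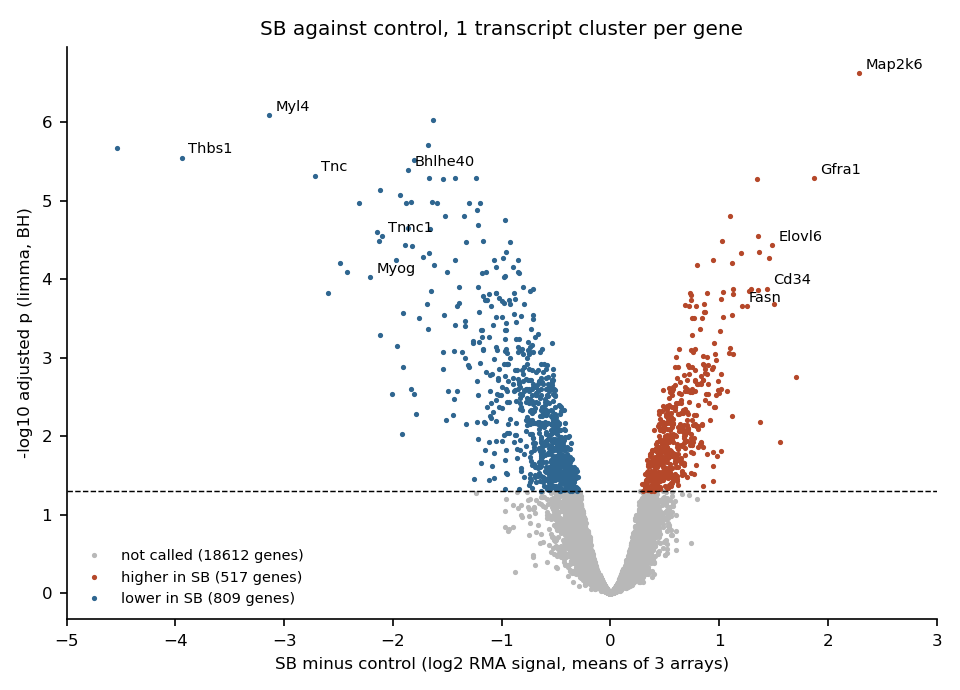
Each point is 1 gene, with SB minus control (log2) on the horizontal axis and -log10 of the adjusted p on the vertical axis, and the dashed line marks an adjusted p of 0.05. The 809 genes lower in SB reach further from 0 than the 517 that are higher, with Thbs1 and Myl4 far to the left and Map2k6 and Gfra1 farthest to the right.

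The 12 largest named decreases joined secreted matrix proteins, muscle proteins and genes of neither kind. A lack of overlap between SB and control arrays was a condition for this naming. Thbs1, which encodes the matricellular protein thrombospondin 1, was at 10.64, 11.07 and 10.83 on the control arrays and at 6.5, 6.84 and 7.38 on the SB arrays. The SB arrays lay below the control arrays without overlap, as they did by any margin for 9.95% of all genes (10.3% lay above), and Thbs1 fell by 15.3-fold (-3.94 ± 0.28; limma, adjusted p = 2.8e-06). Myl4, the embryonic and atrial essential myosin light chain, went from 9.78, 10.2 and 10.32 to 6.63, 7.1 and 7.16, a fall of 8.8-fold (-3.14 ± 0.19). Tnc, which encodes tenascin C, fell by 6.59-fold, from 10.44, 10.75 and 10.16 to 7.73, 7.35 and 8.11. Slc40a1, the iron exporter ferroportin, was at 8.84, 8.72 and 9.52 and then at 5.93, 6.37 and 6.98, without overlap, and fell by 6.06-fold. Col1a1, the alpha 1 chain of type I collagen, fell by 5.6-fold from control values of 8.62, 9.28 and 9.92, which themselves spread widely, to 6.78, 6.5 and 7.09. The others were Macc1 (5.34-fold lower), the muscle membrane protein gene Tmem182 (4.96-fold), Myog, the Z-disc adaptor gene Sorbs2 (4.43-fold), the chymotrypsinogen gene Ctrb1 (4.37-fold), the smooth muscle gamma-actin gene Actg2 (4.36-fold) and the secretory pathway pseudokinase gene Fam20a (4.34-fold). None of the 12 lost its call when any 1 array was left out.

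The 12 largest named increases, taken under the same condition of no overlap, were smaller. Map2k6, which encodes the p38 activator MKK6, was at 5.04, 5.08 and 5.21 on the control arrays and at 7.21, 7.3 and 7.71 on the SB arrays, a rise of 4.9-fold (2.29 ± 0.12; limma, adjusted p = 2.34e-07). Gfra1, a co-receptor for GDNF, rose by 3.66-fold, from 7.57, 7.49 and 7.08 to 9.2, 9.26 and 9.29. Both sets of 3 values were far apart. Tubb3, a beta-tubulin of neurons, was at 6.32, 7.03 and 5.53 and then at 7.8, 8.19 and 8.01, and rose by 3.27-fold. Cd34, a surface sialomucin of satellite cells and other progenitors, rose by 2.72-fold, from 5.72, 5.38 and 6.29 to 7.4, 7.17 and 7.14. None of the other 9 satellite and reserve cell markers was called higher. Megf10 fell by 1.3 on the log2 scale (limma, adjusted p = 0.00131), and the 8 not called, Pax7 among them at -0.08, had changes from -0.36 (Heyl) to 0.46 (Notch3). These markers and Myf5 are named here after their values were seen. The proteoglycan gene Dcn rose by 2.95-fold (limma, adjusted p = 0.0118). Its control values of 7.23, 6.8 and 8.44 were spread so widely that its adjusted p was 0.0546 without control replicate 1 and 0.0594 without control replicate 2. The rest were the metallothionein gene Mt2 (2.82-fold), the fatty acid elongase gene Elovl6 (2.8-fold), the phosphoinositide phosphatase gene Inpp5j (2.74-fold), the peptidase inhibitor gene Pi15 (2.6-fold), the peroxisomal fatty acid transporter gene Abcd2 (2.59-fold), the neuritin gene Nrn1 (2.57-fold) and the collagen prolyl 3-hydroxylase gene P3h2 (2.57-fold). In SB+Dox against Dox all of the 12 but Tubb3 and Pi15 were called higher too. Tubb3 changed there by 0.09 and Pi15 by 0.55 (limma, adjusted p = 0.903 and 0.278). Their interaction adjusted p-values were 0.0786 and 0.439 (limma).

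**Figure D2:**
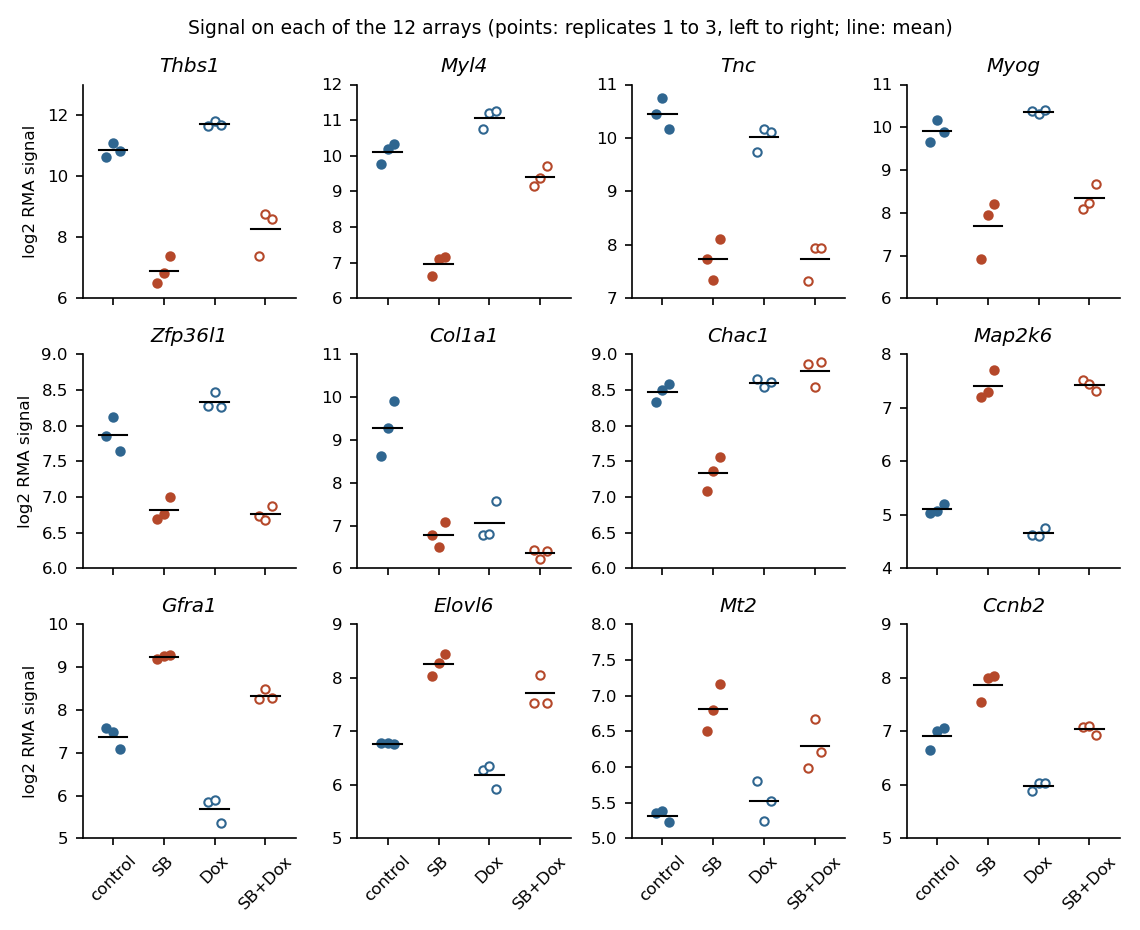
The log2 RMA signal of 12 genes is shown on every array, with replicates 1 to 3 from left to right in each group and a line at the group mean; each panel has its own vertical range. Control and SB arrays do not overlap in any of the 12 panels, which was a condition for naming those among the 12 largest increases or decreases. The SB+Dox and Dox arrays of Chac1 lie at about the same level.

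The genes are described below by families, and 53 lists with 1690 distinct measured genes were read against the shares called among all genes, 2.59% higher and 4.06% lower. Every list but that of interferon genes had a larger share called than all genes (6.65% in either direction). The lists were chosen with earlier results known, and most had a median control level above that of all genes (5.31). A share above that of all genes is therefore not by itself a result about a family. Within the p38 cascade, 2 of 21 kinases and activators rose and 3 fell, and the median change was -0.04, against 0.03 for all clusters. Besides Map2k6, the upstream kinase gene Map3k4 rose by 1.69-fold, from 7.01, 7.18 and 6.41 to 7.66, 7.62 and 7.6 (limma, adjusted p = 0.00715). Gadd45b, a stress-induced activator of Map3k4, fell by 2.24-fold, from 8.44, 8.73 and 7.99 to 7.2, 7.21 and 7.26 (limma, adjusted p = 0.000791). The p38 beta gene Mapk11 and the p38 gamma gene Mapk12 fell by 1.29-fold and 1.35-fold with adjusted p-values of 0.0201 and 0.0475 (limma), and each lost its call in several fits that left out 1 array. For Mapk11 these were SB replicate 2 (0.0995), control replicate 2 (0.0816) and control replicate 3 (0.0663). For Mapk12 they were SB replicates 1 (0.146) and 2 (0.202), control replicates 1 (0.185) and 2 (0.145), SB+Dox replicate 1 (0.066) and each of the 3 Dox replicates (0.0654, 0.0549 and 0.0579).

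Of 18 p38 effectors and substrates 1 rose and 3 fell. Mknk2, a kinase that phosphorylates the cap-binding factor eIF4E, rose by 1.67-fold, from 8.26, 8.14 and 8.21 to 8.83, 9.06 and 8.94. Hspb1, the small heat shock protein phosphorylated downstream of p38, fell by 1.75-fold, and the effector kinase gene Mapkapk5 fell by 1.37-fold. Of 18 MAP kinase phosphatase and Sprouty genes 1 rose and 1 fell (11.1% called, against 6.65% of all genes in either direction). The ERK phosphatase gene Dusp7 fell by 1.94-fold, from 8.55, 8.83 and 8.21 to 7.6, 7.54 and 7.58. Dusp16, a phosphatase of JNK and p38, rose by 1.44-fold, from 7.07, 6.92 and 6.71 to 7.52, 7.36 and 7.4.

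Proteins that bind AU-rich elements set the decay of many short-lived mRNAs, and p38 is known to act on them through its kinase MK2. Of 13 such genes measured, 3 fell and none of the others was called. All 3 belong to the tristetraprolin family. Zfp36l1 was at 7.86, 8.13 and 7.64 on the control arrays and at 6.7, 6.77 and 7.0 on the SB arrays and fell by 2.07-fold (limma, adjusted p = 0.000148). Zfp36l2 fell by 1.6-fold, from 8.14, 8.12 and 8.27 to 7.57, 7.54 and 7.39. Zfp36 itself, at 5.94, 6.01 and 5.75 and then at 5.32, 5.38 and 5.46, fell by 1.43-fold (limma, adjusted p = 0.00702). All 3 groups of values were without overlap. On the Dox and SB+Dox arrays the 3 genes were lower with the inhibitor too, with changes of -1.58, -0.5 and -0.57 (limma, adjusted p = 1.55e-06, 0.0022 and 0.00193).

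Of 30 myogenic factors and their partners 3 rose and 5 fell, with 3 called lower without SB replicate 1, without control replicate 1 and without control replicate 2. Tead4, a TEAD factor that is itself a target of MyoD, fell by 2.62-fold, from 8.18, 8.43 and 8.17 to 6.66, 7.01 and 6.94 (limma, adjusted p = 0.0002). Vgll3, a TEAD cofactor, fell by 1.93-fold, from 9.25, 9.42 and 9.35 to 8.03, 8.5 and 8.63. Eya1, a transcriptional cofactor of muscle precursors, rose by 1.75-fold, from 6.42, 6.18 and 5.85 to 7.05, 6.89 and 6.95 (limma, adjusted p = 0.00213). Myod1 fell by 1.47-fold, from 10.37, 10.5 and 9.99 to 9.45, 9.95 and 9.79 (limma, adjusted p = 0.0356), and its adjusted p was 0.157 without SB replicate 1, 0.127 without control replicate 1, 0.165 without control replicate 2 and 0.0507 without Dox replicate 1.

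The repressors of myogenic bHLH factors fell or were not called. Of 25 genes 4 fell. Bhlhe40, a bHLH repressor, fell by 3.62-fold, from 8.63, 8.83 and 8.47 to 6.72, 6.61 and 7.03 (limma, adjusted p = 4.01e-06), Id2 by 2.0-fold, from 5.86, 6.18 and 6.1 to 4.78, 4.9 and 5.47, and the Notch-responsive repressor gene Hes1 by 1.77-fold, from 6.85, 7.04 and 6.56 to 5.95, 5.82 and 6.2.

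The genes of the contractile apparatus fell in part. Of 25 thin filament genes 12 fell and 2 rose, with a median change of -0.64, and 7 fell when SB replicate 1 or control replicate 2 was left out. Tnnc1, the calcium-binding troponin C of slow and cardiac muscle, was at 11.14, 11.39 and 11.12 on the control arrays and at 8.47, 9.3 and 9.59 on the SB arrays and fell by 4.27-fold (limma, adjusted p = 2.8e-05). The slow troponin T gene Tnnt1 fell by 2.35-fold, from 9.57, 9.97 and 9.64 to 7.87, 8.49 and 9.12, and the fast troponin I gene Tnni2 by 2.31-fold, from 9.02, 9.27 and 8.92 to 7.35, 8.01 and 8.22. For each of these 3 genes the lowest array was SB replicate 1. Of 30 thick filament and M-band genes 8 fell and the median change was -0.12. Among them the myosin-binding protein gene Mybph fell by 3.57-fold, from 10.68, 10.9 and 10.79 to 8.55, 9.23 and 9.09, the M-band gene Myom1 by 2.65-fold and the fast regulatory light chain gene Mylpf by 2.39-fold.

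Of 29 Z-disc and costamere genes 12 fell, and 7 fell without control replicate 1 or without control replicate 2. Sorbs2 went from 5.98, 6.31 and 6.13 to 3.87, 4.2 and 3.9. The stretch-responsive gene Ankrd1 fell by 1.98-fold, from 10.75, 10.78 and 11.07 to 9.85, 9.71 and 10.08, and the PDZ-LIM adaptor gene Pdlim5 by 1.79-fold. Excitation-contraction coupling couples the surface voltage sensor to calcium release, and 9 of its 28 genes fell, with a median change of -0.4. Without SB replicate 3, 15 of them fell. The voltage sensor gene Cacna1s was at 6.84, 7.32 and 7.21 on the control arrays and at 5.33, 5.53 and 5.46 on the SB arrays and fell by 3.21-fold (limma, adjusted p = 0.000429). Its beta subunit gene Cacnb1 fell by 2.87-fold, the junctional membrane gene Jph2 by 3.16-fold and the calcium store gene Casq1 by 2.22-fold.

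The 41 genes called lower in these 4 lists (thick filament, thin filament, Z-disc and coupling) were looked up among the RefSeq promoters of GRCm38.p6, and 31 had an entry. In the 250 bases before the start, both strands read, 11 of the 31 (35.5%) held CAGCTG, the E-box form that MyoD and myogenin favour, against 12.2% of 15614 tested genes with an entry and 12.8% of all 27018 promoters. The TEAD letters GGAATG stood in 10 of the 31 (32.3%), against 11.3% of the tested genes and 12.6% of all promoters. The promoters of Mybph and Cacna1s below hold both strings, which abut in Mybph and lie 1 base apart in Cacna1s, and Myog is shown because its own mRNA fell. Capitals mark CANNTG, which 66.1% of all promoters hold, and GGAATG. The windows are chr1:134193198-134193447, plus strand, for Mybph, chr1:136052561-136052810, plus strand, for Cacna1s, and chr1:134289754-134290003, plus strand, for Myog. A match is a string of letters and no measured binding. Uncalled members of the 4 lists were not counted separately, so these shares cannot separate list membership from the response to the inhibitor.
Mybph: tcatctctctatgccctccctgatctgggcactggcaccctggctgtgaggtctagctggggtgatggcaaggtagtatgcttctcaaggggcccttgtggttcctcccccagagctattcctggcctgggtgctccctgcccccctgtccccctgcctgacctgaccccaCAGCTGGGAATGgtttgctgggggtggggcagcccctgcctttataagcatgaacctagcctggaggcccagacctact
Cacna1s: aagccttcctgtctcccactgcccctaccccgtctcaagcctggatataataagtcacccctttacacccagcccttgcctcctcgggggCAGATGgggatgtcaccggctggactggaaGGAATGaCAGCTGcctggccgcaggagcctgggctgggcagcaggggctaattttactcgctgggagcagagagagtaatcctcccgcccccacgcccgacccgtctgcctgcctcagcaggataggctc
Myog: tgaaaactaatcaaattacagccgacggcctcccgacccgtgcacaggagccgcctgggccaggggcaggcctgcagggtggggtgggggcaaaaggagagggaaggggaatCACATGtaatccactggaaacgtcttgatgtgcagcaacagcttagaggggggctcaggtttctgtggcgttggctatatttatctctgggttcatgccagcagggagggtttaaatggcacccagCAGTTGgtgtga
In Myog only the E-box letters were marked, starting at positions -138 and -12 counted back from the base before the start at -1.

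Genes of fusion and adhesion moved both ways: 11 of 39 fell and 3 rose. The fusogens fell, Mymk (myomaker) by 3.08-fold, from 10.78, 11.13 and 10.73 to 8.78, 9.56 and 9.44, and Mymx (myomixer) by 2.69-fold, from 6.94, 7.09 and 7.06 to 5.6, 5.64 and 5.56 (limma, adjusted p = 6.54e-05 and 5.09e-06). The laminin receptor subunit gene Itga6 fell by 2.53-fold, from 8.13, 8.32 and 8.39 to 6.76, 6.95 and 7.11. Of 21 acetylcholine receptor and synapse genes 5 fell and 1 rose, with 3 lower without control replicate 2. The agrin receptor gene Lrp4 fell by 2.08-fold, Ncam1 by 2.15-fold and the neuregulin receptor gene Erbb3 by 2.51-fold. Of 27 channel genes of excitable membranes 2 fell (7.41% called, against 6.65% of all genes in either direction), the mechanosensitive channel gene Piezo1 by 1.55-fold, from 9.19, 9.25 and 9.3 to 8.73, 8.55 and 8.58, and the sodium pump regulator gene Fxyd5 by 1.85-fold. In the dystrophin complex, 1 of 16 measured genes fell and 2 rose (18.8% called). The sarcoglycan gene Sgca fell by 2.06-fold, and the syntrophin gene Sntb2 rose by 1.5-fold, from 6.61, 6.58 and 6.49 to 7.2, 7.07 and 7.17.

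**Figure D3:**
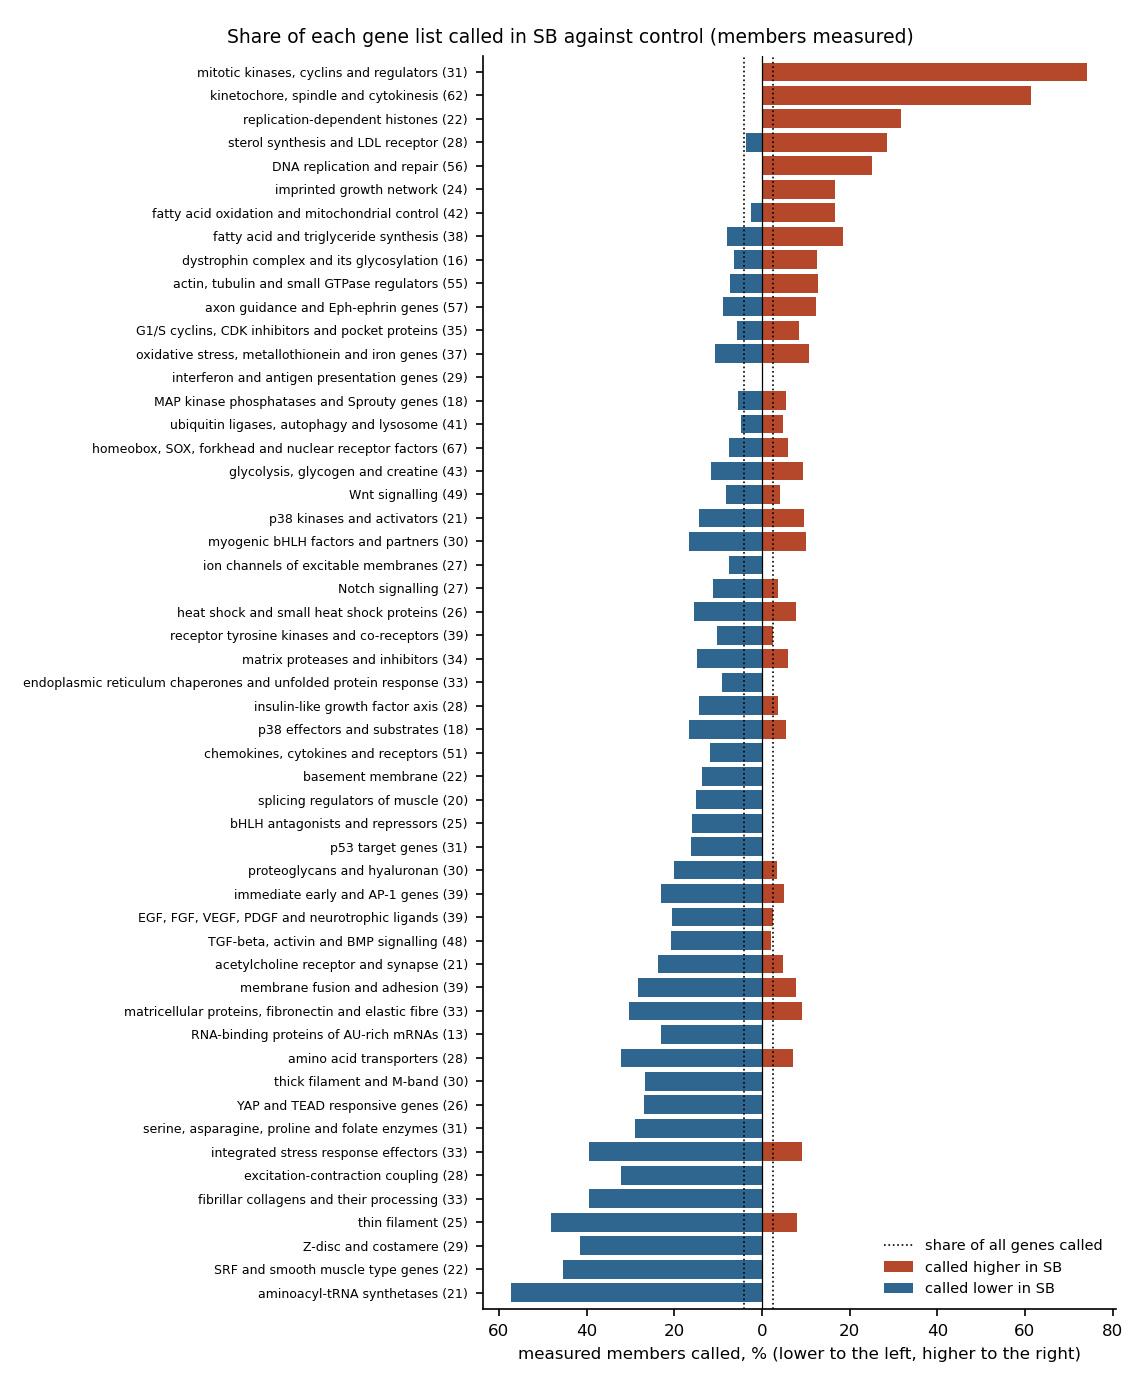
For each of the 53 lists, with the number of measured members in brackets, the bars give the percent of members called higher in SB (right) and called lower in SB (left), and the dotted lines give the shares of all genes, 2.59% and 4.06%. Mitosis lists reach farthest to the right, and tRNA synthetases, thin filament, smooth muscle type, Z-disc, collagen and integrated stress response genes reach farthest to the left.

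In each of 5 lists of extracellular matrix genes some members fell and most were not called. Of 33 fibrillar collagen and collagen-processing genes 13 fell, with a median change of -0.33, and 8 fell without SB replicate 1. The crosslinking enzyme gene Lox was at 8.68, 8.78 and 8.59 on the control arrays and at 6.49, 6.66 and 7.31 on the SB arrays and fell by 3.64-fold (limma, adjusted p = 2.24e-05). Col5a2 fell by 1.78-fold and the lysyl oxidase-like gene Loxl4 by 1.57-fold. Among 33 matricellular, fibronectin and elastic fibre genes 10 fell and 3 rose. Postn (periostin) fell by 3.7-fold, from 9.5, 9.79 and 9.3 to 7.69, 7.33 and 7.9, and Ccn2 (connective tissue growth factor) by 2.54-fold, from 7.77, 8.24 and 7.82 to 6.68, 6.84 and 6.27. Of 22 basement membrane genes 3 fell, among them the nephronectin gene Npnt (2.16-fold) and the nidogen gene Nid1 (1.67-fold).

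Of 30 proteoglycan and hyaluronan genes 6 fell and 1, Dcn, rose. The large proteoglycan gene Vcan fell by 3.29-fold, from 7.91, 8.1 and 7.87 to 6.06, 5.91 and 6.76, the small proteoglycan gene Aspn by 2.91-fold, from 6.29, 5.99 and 5.76 to 4.27, 4.39 and 4.76, and the hyaluronan synthase gene Has2 by 1.95-fold, from 5.87, 6.1 and 5.72 to 4.92, 5.0 and 4.88. Among 34 matrix proteases and inhibitors 5 fell and 2 rose, with 2 lower without SB replicate 1 or 2 and 3 lower without any of the 3 control replicates in turn. The metalloprotease inhibitor gene Timp1 fell by 2.33-fold, from 8.87, 9.0 and 8.83 to 7.58, 7.63 and 7.84 (limma, adjusted p = 2e-05), and the aggrecanase gene Adamts5 by 2.74-fold.

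Of 22 genes under serum response factor and of smooth muscle type 10 fell, with a median change of -0.26. Actg2 went from 8.41, 8.92 and 8.27 to 6.07, 6.5 and 6.66. Tagln (transgelin) fell by 3.77-fold, from 7.92, 8.75 and 8.17 to 5.69, 6.41 and 7.01, Myl9 by 3.46-fold, from 8.88, 9.46 and 8.67 to 6.23, 7.43 and 7.98, and Cnn2 by 1.74-fold. The lowest SB array was replicate 1 for each of these 4 genes. Of 26 YAP and TEAD responsive genes 7 fell, which include Ccn2 and Ankrd1 from above, Ajuba (1.78-fold) and the Hippo kinase gene Lats2 (1.67-fold, from 6.63, 6.78 and 6.74 to 5.92, 5.93 and 6.06).

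In the TGF-beta, activin and BMP list 10 of 48 fell and 1 rose. The genes induced by TGF-beta that feed back on its signal were among them: Pmepa1 fell by 3.17-fold, from 11.16, 11.29 and 10.96 to 9.34, 9.53 and 9.53, Skil by 3.01-fold, from 7.98, 8.12 and 7.73 to 6.26, 6.27 and 6.52, and Smad7 by 1.96-fold, from 7.38, 7.25 and 7.21 to 6.55, 6.31 and 6.09. Their adjusted p-values were 5.09e-06, 1.06e-05 and 0.000442 (limma), and none of the 3 genes had overlapping groups.

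Of 39 ligands of the EGF, FGF, VEGF, PDGF and neurotrophic families 8 fell and 1 rose. Fgf21, a secreted stress hormone, fell by 2.27-fold, from 9.26, 9.24 and 9.25 to 7.75, 8.02 and 8.45, Hbegf by 1.86-fold, from 6.75, 6.91 and 6.82 to 6.04, 5.9 and 5.85, and Pdgfa by 2.11-fold, from 8.19, 8.5 and 8.05 to 7.19, 7.18 and 7.15. Vegfd was the ligand that rose, by 2.18-fold, from 6.35, 6.22 and 6.14 to 7.31, 7.48 and 7.29 (limma, adjusted p = 0.000154). In the insulin-like growth factor axis 4 of 28 genes fell and 1 rose, with 2 lower without control replicate 1 or 2. Igf1 rose by 1.49-fold, from 4.75, 4.59 and 4.68 to 5.16, 5.27 and 5.31, while the binding protein genes Igfbp2 and Igfbp7 fell by 1.75-fold and 1.61-fold. Of 39 receptor tyrosine kinases and co-receptors 4 fell, Erbb3 among them, and Gfra1 was the 1 that rose. The 4 became 2 without SB replicate 1 or any 1 control replicate, and 1 without SB replicate 2.

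Of 57 guidance and Eph-ephrin genes 7 rose and 5 fell. Those called higher were 3 without control replicate 2 and 4 without control replicate 3, and those called lower were 3 without SB replicate 1 or control replicate 1, 2 without SB replicate 2 and 8 without SB replicate 3. The semaphorin receptor gene Plxna2 rose by 1.94-fold, from 7.06, 6.96 and 6.48 to 7.71, 7.67 and 7.98. The netrin receptor gene Unc5b fell by 2.06-fold, from 7.44, 7.73 and 8.03 to 6.7, 6.52 and 6.85, and Sema7a by 2.0-fold, from 6.98, 7.22 and 7.4 to 6.29, 6.23 and 6.09. In the chemokine and cytokine list 6 of 51 fell, and 3 fell without SB replicate 2 or without control replicate 3. Ptgs2, the inducible cyclooxygenase gene, was at 7.58, 7.38 and 8.0 on the control arrays and at 5.74, 5.61 and 5.71 on the SB arrays and fell by 3.91-fold (limma, adjusted p = 5.72e-05), and the oncostatin M receptor gene Osmr fell by 1.66-fold. None of 29 interferon and antigen presentation genes was called (limma, 1 lower and 0 higher at an unadjusted p under 0.05); the largest change among them was that of Isg20, -0.41 ± 0.13 (adjusted p = 0.0748).

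Of 49 Wnt genes 4 fell and 2 rose, with 2 lower without SB replicate 1. The receptor gene Fzd2 fell by 1.8-fold, from 7.72, 8.13 and 7.83 to 6.78, 7.13 and 7.23, the ligand gene Wnt10a by 1.64-fold, and the secreted Wnt binder gene Sfrp4 rose by 1.8-fold, from 4.3, 4.33 and 4.47 to 5.44, 5.18 and 5.04. Of 27 Notch genes 3 fell and 1 rose, and besides Hes1 the Numb-like gene Numbl fell by 1.41-fold.

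Among 39 immediate early and AP-1 genes 9 fell and 2 rose, with a median change of -0.17. Klf5, a Krüppel-like factor, fell by 2.25-fold, from 8.65, 8.74 and 8.7 to 7.26, 7.71 and 7.62, the orphan receptor gene Nr4a1 by 2.0-fold, from 6.91, 6.54 and 6.72 to 5.77, 5.66 and 5.74, and Klf4 by 1.71-fold. Of 67 homeobox, SOX, forkhead and nuclear receptor genes 4 rose and 5 fell. Those counts ranged from 1 (without SB replicate 2) for the higher, with 2 without SB replicate 3, control replicate 1 or control replicate 3. For the lower they were 2 without SB replicate 2 or control replicate 1, and 3 without Dox replicate 2, SB replicate 1, SB+Dox replicate 1, SB+Dox replicate 2 or control replicate 3. Runx1 fell by 1.91-fold, from 8.66, 8.84 and 8.43 to 7.48, 7.66 and 7.98, and the clock repressor gene Nr1d1 fell by 2.15-fold, from 9.75, 9.28 and 8.79 to 8.61, 8.11 and 7.79. Of 20 splicing regulators of muscle 3 fell, and Rbfox1, which drives muscle-specific exon use, fell by 1.59-fold, from 5.83, 5.98 and 5.5 to 4.92, 5.09 and 5.28.

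Most genes of 2 cell division lists rose. Of 31 mitotic kinases, cyclins and regulators 23 rose, with a median change of 0.62, and of 62 kinetochore, spindle and cytokinesis genes 38 rose, with a median of 0.56; no member of either list was called lower (limma, 0 also at an unadjusted p under 0.05). Ccnb2, a B-type cyclin of mitotic entry, was at 6.65, 7.01 and 7.06 on the control arrays and at 7.55, 7.99 and 8.04 on the SB arrays and rose by 1.93-fold (limma, adjusted p = 0.000648). The checkpoint kinase gene Bub1 rose by 2.17-fold, from 5.17, 5.87 and 5.08 to 6.38, 6.51 and 6.58. Ccna2 rose by 2.0-fold, from 7.28, 7.92 and 7.62 to 8.48, 8.72 and 8.62. Foxm1, a transcription factor of the mitotic programme, rose by 1.9-fold, from 5.95, 6.51 and 6.26 to 7.16, 7.1 and 7.24. The chromosome kinesin gene Kif4 rose by 1.93-fold, the RhoA regulator gene Arhgap11a by 1.92-fold and the cohesin acetyltransferase gene Esco2 by 1.8-fold. Control replicate 2 was the highest control array for Bub1, Ccna2, Foxm1, Kif4, Arhgap11a and Esco2, and every SB array lay above it. The counts depended on single arrays. The 23 became 12 without SB replicate 2 or control replicate 1 and 14 without control replicate 3, and the 38 became 16 without SB replicate 2, 12 without control replicate 1 and 21 without control replicate 3.

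Of the 61 genes called higher in these 2 lists 51 had a RefSeq promoter entry. In the 250 bases before the start, both strands read, 36 of the 51 (70.6%) held CCAAT, the letters of the NF-Y site, against 35.5% of the tested genes with an entry and 34.5% of all promoters. TTTGAA, the letters of the cell cycle genes homology region (CHR), stood in 19 (37.3%), against 13.7% and 16.3%. The E2F letters TTTCCCGC and TTTGGCGC stood in 2 each (3.92%), against 1.33% and 0.615% of the tested genes and 0.929% and 0.437% of all promoters. Uncalled members of the 2 lists were not counted separately, so the shares may belong to mitosis genes whether called or not. The promoters of Ccnb2 (chr9:70421555-70421804, minus strand) and Bub1 (chr2:127831860-127832109, minus strand) are shown for the repeated CCAAT, which is set in capitals together with TTTGAA. In Bub1 the capitals ATTGG are CCAAT on the other strand.
Ccnb2: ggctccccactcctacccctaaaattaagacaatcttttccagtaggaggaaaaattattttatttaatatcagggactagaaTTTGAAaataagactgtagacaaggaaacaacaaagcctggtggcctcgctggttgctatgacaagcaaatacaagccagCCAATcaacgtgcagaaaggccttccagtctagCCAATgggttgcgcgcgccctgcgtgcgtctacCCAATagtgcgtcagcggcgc
Bub1: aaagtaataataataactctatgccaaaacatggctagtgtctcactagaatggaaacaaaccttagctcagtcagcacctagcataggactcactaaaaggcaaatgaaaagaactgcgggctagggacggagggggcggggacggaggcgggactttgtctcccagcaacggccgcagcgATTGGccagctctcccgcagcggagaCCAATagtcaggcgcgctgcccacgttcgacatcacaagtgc
Ccnb2 held CCAAT starting at -87, -54 and -21 and TTTGAA at -167, and Bub1 held CCAAT at -68 and -42. None of these strings overlapped another.

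Some replication and S phase genes rose as well. Of 56 DNA replication and repair genes 14 rose, with a median change of 0.34. The histone chaperone gene Asf1b rose by 2.02-fold, from 7.12, 7.57 and 7.25 to 8.32, 8.55 and 8.11 (limma, adjusted p = 0.00159). Of 22 measured replication-dependent histone genes 7 rose, with a median of 0.38, and the linker histone gene H1f5 rose by 1.86-fold, from 8.69, 9.09 and 8.66 to 9.65, 9.85 and 9.65. Histone genes are near-identical copies, so their probes may share signal. The 14 became 7 without SB replicate 1, SB replicate 2 or control replicate 1 and 8 without control replicate 3, and the 7 histones became 1 without SB replicate 1, SB replicate 2 or control replicate 3 and 4 without control replicate 1. Of 35 G1/S genes 3 rose and 2 fell. The growth arrest gene Gas1 rose by 1.62-fold, from 9.18, 9.05 and 8.73 to 9.55, 9.83 and 9.66, and the G1 kinase gene Cdk6 fell by 1.42-fold, from 8.39, 8.28 and 8.29 to 7.93, 7.74 and 7.76.

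Some lipid synthesis genes rose, and most were not called. Of 28 measured genes of sterol synthesis and the LDL receptor 8 rose and 1 fell, with a median change of 0.39, and 3 rose without SB replicate 2 and 4 without control replicate 3. Dhcr7, the reductase that completes cholesterol synthesis, was at 7.85, 7.86 and 7.48 on the control arrays and at 8.77, 8.92 and 8.84 on the SB arrays and rose by 2.17-fold (limma, adjusted p = 6.11e-05). Insig1, the sterol-responsive anchor of SREBP, rose by 1.84-fold, from 8.74, 8.88 and 8.71 to 9.31, 9.9 and 9.76, and the sterol reductase gene Tm7sf2 by 1.69-fold. The gene that fell was the sterol isomerase gene Ebp, by 1.78-fold, from 6.33, 6.87 and 6.77 to 5.59, 6.05 and 5.84. Of 38 fatty acid and triglyceride synthesis genes 7 rose and 3 fell, with 4 higher without SB replicate 2, control replicate 1 or control replicate 3. Fasn, the fatty acid synthase gene, rose by 2.31-fold, from 8.51, 8.46 and 8.28 to 9.56, 9.61 and 9.7, Elovl6 went from 6.78, 6.78 and 6.76 to 8.04, 8.28 and 8.45, and the acetyl-CoA synthetase gene Acss2 rose by 2.03-fold. The desaturase-like gene Fads3 fell by 1.78-fold.

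In fatty acid oxidation and mitochondrial control 7 of 42 genes rose and 1 fell, with 4 higher without control replicate 3. Hadh, a mitochondrial beta-oxidation enzyme, rose by 1.86-fold, from 8.05, 8.06 and 8.11 to 8.86, 8.98 and 9.05, and the lipoprotein lipase gene Lpl by 1.99-fold. Cox6a2, the muscle form of a cytochrome oxidase subunit, fell by 2.0-fold, from 7.56, 7.58 and 8.05 to 6.52, 6.89 and 6.78. Of 43 glycolysis, glycogen and creatine genes 4 rose and 5 fell. Those called higher were 2 without SB replicate 2, SB replicate 3 or control replicate 3, and those called lower were 1 without SB replicate 1 or control replicate 2 and 2 without SB replicate 2 or control replicate 1. The myoglobin gene Mb fell by 3.54-fold, from 8.26, 8.69 and 8.1 to 6.49, 6.53 and 6.56 (limma, adjusted p = 3.79e-05).

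Members of 4 lists of amino acid supply and of the integrated stress response fell; they were the majority of the measured members in the tRNA synthetase list and a minority in the other lists. ATF4, the transcription factor of this response, is known to drive amino acid transporters, serine and folate enzymes and tRNA synthetases. Of 21 measured tRNA synthetase genes 12 fell, with a median change of -0.46, and no left-out array moved this count by over 1.5 times. The 4 largest of these changes were those of Lars (1.66-fold lower, from 8.64, 8.62 and 8.98 to 7.92, 7.83 and 8.28), Cars (1.63-fold), Eprs (1.59-fold) and Tars (1.57-fold). Of 28 amino acid transporters 9 fell and 2 rose. The cystine transporter gene Slc7a11 was at 6.04, 6.1 and 7.02 on the control arrays and at 4.69, 4.92 and 5.06 on the SB arrays and fell by 2.82-fold (limma, adjusted p = 0.00267). Slc6a6, the taurine transporter gene, fell by 2.56-fold, the glycine transporter gene Slc6a9 by 2.4-fold and the arginine transporter gene Slc7a1 by 2.34-fold.

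Of 31 serine, asparagine, proline and folate enzymes 9 fell. Mthfd2, a mitochondrial folate enzyme, fell by 2.3-fold, from 8.53, 8.62 and 8.89 to 7.0, 7.55 and 7.89, Bcat1, a branched-chain transaminase, by 2.27-fold, from 7.73, 7.91 and 8.25 to 6.64, 6.61 and 7.08, and Shmt2 by 2.02-fold. Of 33 effectors of the response 13 fell and 3 rose, with a median change of -0.41. Chac1, which degrades glutathione, fell by 2.21-fold, from 8.34, 8.5 and 8.58 to 7.08, 7.36 and 7.56 (limma, adjusted p = 8e-05). The pseudokinase gene Trib3 fell by 2.84-fold, from 8.18, 8.04 and 9.14 to 6.62, 6.91 and 7.3, Nupr1 by 2.51-fold, from 7.43, 7.34 and 7.85 to 6.15, 6.21 and 6.29, and Sesn2 by 2.07-fold, from 7.68, 7.61 and 7.93 to 6.54, 6.81 and 6.72. Control replicate 3 was the highest control array for Slc7a11, Trib3, Nupr1, Mthfd2, Bcat1, Shmt2 and Chac1.

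Of the 43 genes called lower in these 4 lists 34 had a RefSeq promoter entry. TGATGNAA, the core of the C/EBP-ATF response element, stood in the 250 bases before the start of 8 of the 34 (23.5%), both strands read, against 2.77% of the tested genes with an entry and 3.53% of all promoters. Of the other letters searched, CCAAT stood in 50% of the 34, CAGCTG in 11.8%, and the AP-1 letters TGANTCA in 8.82%, against 6.11% of the tested genes; TGANTCA stood in 1.96% of the 51 mitosis promoters and 6.45% of the 31 contractile ones. The sterol element letters TCACNCCAC stood in 0 of these 34, 51 and 31 promoters and in 1.04% of all. Here too the uncalled members of the lists were not counted separately, so the shares may belong to the lists whether called or not. The promoters of Chac1 (chr2:119350992-119351241, plus strand), Slc7a11 (chr3:50443614-50443863, minus strand) and Nupr1 (chr7:126625471-126625720, minus strand) are shown with TGATGNAA on either strand in capitals.
Chac1: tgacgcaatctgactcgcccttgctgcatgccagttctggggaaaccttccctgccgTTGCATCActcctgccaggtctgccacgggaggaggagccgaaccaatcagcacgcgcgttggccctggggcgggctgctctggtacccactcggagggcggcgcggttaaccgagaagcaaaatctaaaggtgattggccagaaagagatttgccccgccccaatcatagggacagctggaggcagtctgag
Slc7a11: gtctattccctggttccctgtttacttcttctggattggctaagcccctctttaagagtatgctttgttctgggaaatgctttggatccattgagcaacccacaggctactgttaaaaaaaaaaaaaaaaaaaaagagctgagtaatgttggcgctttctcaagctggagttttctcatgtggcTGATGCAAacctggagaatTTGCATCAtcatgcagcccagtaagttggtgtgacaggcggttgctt
Nupr1: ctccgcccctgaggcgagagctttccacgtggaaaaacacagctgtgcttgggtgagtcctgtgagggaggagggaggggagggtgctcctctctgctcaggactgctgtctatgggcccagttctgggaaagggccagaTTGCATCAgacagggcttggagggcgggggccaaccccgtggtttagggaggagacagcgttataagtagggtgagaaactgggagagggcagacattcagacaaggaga
The string starts at -193 in Chac1, at -66 and -47 in Slc7a11 and at -110 in Nupr1, and was not found to overlap another.

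Of 33 endoplasmic reticulum chaperone and unfolded protein response genes 3 fell (9.09% called, against 6.65% of all genes in either direction), and the degradation factor gene Herpud1 fell by 2.17-fold, from 9.45, 9.53 and 9.69 to 8.17, 8.5 and 8.64. Of 26 heat shock genes 2 rose and 4 fell (23.1% called), with 1 lower without control replicate 1 or 2. The HSP110-type chaperone gene Hspa4l rose by 1.57-fold and Hsp90aa1 by 1.45-fold. Among 37 oxidative stress, metallothionein and iron genes 4 rose and 4 fell, with 2 lower without SB replicate 2, control replicate 2 or control replicate 3. Both metallothionein genes named by the rule rose, Mt1 by 2.04-fold, from 7.09, 7.05 and 7.22 to 8.01, 8.1 and 8.33, and Mt2, from 5.35, 5.38 and 5.23 to 6.5, 6.8 and 7.16 (limma, adjusted p = 3.28e-05 and 0.000206). The glutathione transferase gene Gsta4 rose by 2.14-fold, from 8.73, 8.61 and 8.8 to 9.73, 9.91 and 9.8. Of 31 p53 target genes 5 fell, with 3 without SB replicate 1, control replicate 1 or control replicate 2, and the death receptor gene Eda2r fell by 1.94-fold and Plk2 by 1.57-fold.

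Of 41 ubiquitin ligase, autophagy and lysosome genes 2 rose and 2 fell (9.76% called, against 6.65% of all genes in either direction). Fbxo32, the atrophy-related ubiquitin ligase atrogin-1, rose by 2.14-fold, from 6.42, 6.5 and 6.65 to 7.16, 7.65 and 8.04, and Asb5 fell by 1.95-fold, from 10.08, 10.14 and 9.93 to 9.15, 8.98 and 9.12. Of 24 measured genes of the imprinted growth network 4 rose, Dcn among them, and 2 rose without control replicate 1 or 2. Mest rose by 1.39-fold, from 3.76, 3.74 and 3.9 to 4.12, 4.25 and 4.46, at a level under the median of all clusters. Of 55 actin, tubulin and small GTPase regulators 7 rose and 4 fell. The RhoGAP gene Arhgap18 rose by 2.39-fold, from 5.33, 5.38 and 5.32 to 6.42, 6.38 and 7.01, the microtubule-binding kinase gene Dclk1 fell by 3.11-fold, from 7.8, 8.03 and 7.55 to 6.01, 5.97 and 6.49, and the CDC42 effector gene Cdc42ep3 fell by 2.34-fold.

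Of 297 microRNA genes with a cluster of their own 3 were called (1.01%, against 6.65% of all genes), all lower, and they are named here after their values were seen. The probes read the primary or precursor RNA and not the mature form. Mir145a, a microRNA of smooth muscle and mesenchymal cells, was at 6.15, 6.1 and 5.59 on the control arrays and at 4.71, 4.82 and 5.25 on the SB arrays and fell by 2.03-fold (limma, adjusted p = 0.00424). Mir27a fell by 1.35-fold, from 6.16, 6.15 and 5.98 to 5.9, 5.43 and 5.64 (limma, adjusted p = 0.0337). Mir1a-1, of the muscle microRNA miR-1, lay near the floor of the array, at 2.22, 2.37 and 2.08 and then at 1.56, 1.78 and 1.68, and fell by 1.46-fold (limma, adjusted p = 0.0454). The RefSeq mature forms held here are shown with the seed, bases 2 to 8, in capitals, and no seed is shared between them. For Mir1a-1 only mmu-miR-1a-1-5p was held, so the seed of its other arm is not shown. No mature form of Mir145a was held.
mmu-miR-27a-3p: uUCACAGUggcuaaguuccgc
mmu-miR-27a-5p: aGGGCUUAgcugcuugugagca
mmu-miR-1a-1-5p: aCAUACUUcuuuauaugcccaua

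The same inhibitor was tested on 6 other arrays, SB+Dox against Dox, where 2265 clusters (10.4%) were called, 1518 higher (6.97%) and 747 lower (3.43%). The 2 comparisons share no array, but share 1 estimate of the spread, and the deviations of same-numbered SB and SB+Dox arrays from their group means correlated at 0.436, 0.194 and 0.493. Of the 547 clusters higher in SB, 533 (97.4%) had the same sign there and 415 (75.9%) were called higher there too, which is 27.3% of the 1518. The 415 were 231 without SB replicate 2 and 249 without control replicate 3. Of the 843 lower clusters, 734 (87.1%) had the same sign and 357 (42.3%) were called lower there, 47.8% of the 747, while 4 were called higher. The median change was 0.55 and then 0.62 for the higher clusters and -0.6 and then -0.35 for the lower ones. The clusters were chosen by their change in the first comparison, so a smaller value in the second is not itself a difference. The test of the difference is the interaction, which called 195 of 21789 clusters (0.895%), 31 of them among the 547 and 52 among the 843. The 195 moved by over 1.5 times when any 1 of the 12 arrays was left out, from 27 without SB replicate 2 to 352 without SB replicate 3. They were 421 with the replicate number as a block, 79 after quantile normalisation and 6 when every cluster of the array was tested.

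**Figure D4:**
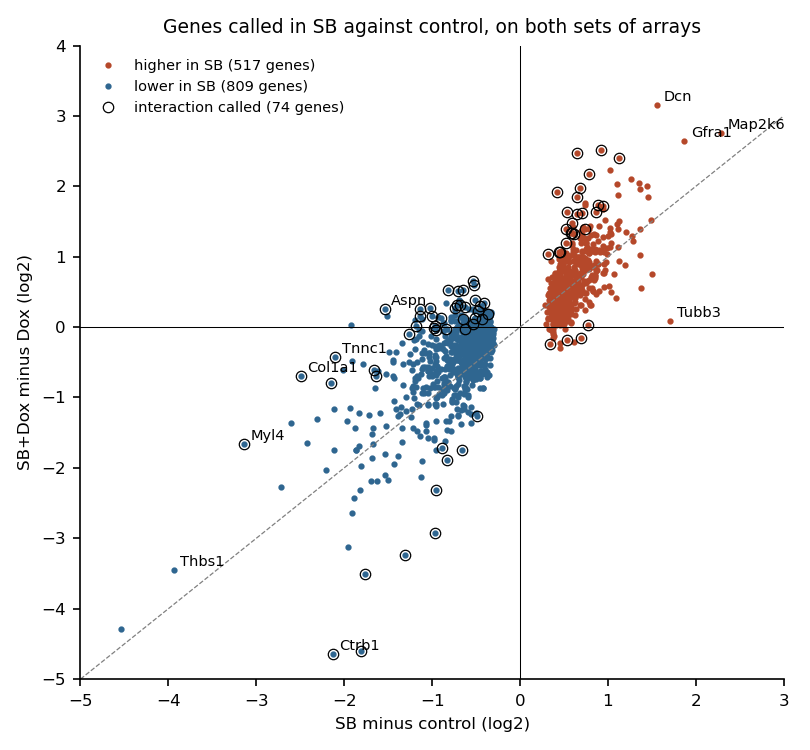
Each point is 1 of the 1326 genes called in SB against control, with that change on the horizontal axis and SB+Dox minus Dox on the vertical axis (both log2); rings mark the 74 whose interaction was called, and the dashed line marks equal change. Genes higher in SB lie mostly in the upper right, while those lower in SB lie on both sides of the dashed line, with medians of -0.6 and -0.35 over the lower clusters.

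The families were counted on those arrays as well, with no test of one family against another. Mitotic genes were called higher there in 25 of 31 cases and kinetochore and spindle genes in 46 of 62, with none lower, against 7.19% of all genes higher and 3.55% lower. No member of either list was called in the interaction (limma), against 0.938% of all genes. DNA replication genes were called higher in 25 of 56 and lower in 1, and sterol genes higher in 9 of 28 and lower in 1. Ccnb2 was at 5.88, 6.03 and 6.03 on the Dox arrays and at 7.08, 7.11 and 6.93 on the SB+Dox arrays, a rise of 1.06, beside 0.95 without doxycycline (limma, interaction adjusted p = 0.867). Thbs1 fell from 11.64, 11.8 and 11.67 to 7.4, 8.77 and 8.61, a change of -3.45 beside -3.94 (limma, interaction adjusted p = 0.681). Myog fell from 10.39, 10.3 and 10.4 to 8.1, 8.23 and 8.68, a change of -2.03 beside -2.21 (limma, interaction adjusted p = 0.88). The positions of the Myog probes were not given, so whether they read the induced cDNA or only the cell's own Myog mRNA is not known. Lox changed by -1.74 beside -1.86 (limma, interaction adjusted p = 0.889). A p above the threshold does not show that the changes were equal.

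Of the 21 tRNA synthetases none was called lower in SB+Dox against Dox and 1 was called higher, with a median change of 0.07. The interaction was called for 3 of the 21, and for 0 to 10 of them when 1 array was left out. Of the 33 stress response effectors 3 were called lower and 6 higher there, with the interaction called for 1, Chac1. Of the 28 amino acid transporters 3 were called lower and 3 higher there, and of the 31 serine, asparagine, proline and folate enzymes 1 lower and 6 higher, with the interaction called for 4 of each list (0 to 5 and 0 to 7 when 1 array was left out). Chac1 was at 8.65, 8.55 and 8.62 on the Dox arrays and at 8.86, 8.55 and 8.9 on the SB+Dox arrays, a change of 0.16 that was not called, against -1.14 without doxycycline (limma, interaction adjusted p = 0.00695). Its interaction was called without each of the 12 arrays in turn, with adjusted p-values up to 0.027. Nupr1 fell in both, with changes of -1.33 and -0.82 (interaction adjusted p = 0.292), and Trib3 changed by 0.16 with doxycycline, which was not called (interaction adjusted p = 0.0897).

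Thin filament genes were called lower in 3 of 25 and higher in 2 on those arrays, and Z-disc genes lower in 6 of 29 and higher in 1. Tnnc1 was at 11.53, 11.78 and 11.67 and 11.08, 11.24 and 11.36, a change of -0.43 that was not called, against -2.1 without doxycycline (limma, interaction adjusted p = 0.0194, and 0.0549 without SB replicate 2 and 0.0547 when SB+Dox replicate 3 was left out). Collagen and processing genes were called lower in 7 of 33 and higher in 3. Col1a1 stood at 6.79, 6.81 and 7.57 on the Dox arrays and at 6.43, 6.23 and 6.4 on the SB+Dox arrays, so its level without the inhibitor was lower there than in control cells, and its change of -0.7 was not called (limma, interaction adjusted p = 0.0434, and 0.0719 to 0.133 in 9 of the 12 fits that left out 1 array). Mymx and Cacna1s fell in both comparisons, with changes of -1.95 and -1.52 beside doxycycline, with interaction adjusted p-values of 0.177 and 0.882.

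**Figure D5:**
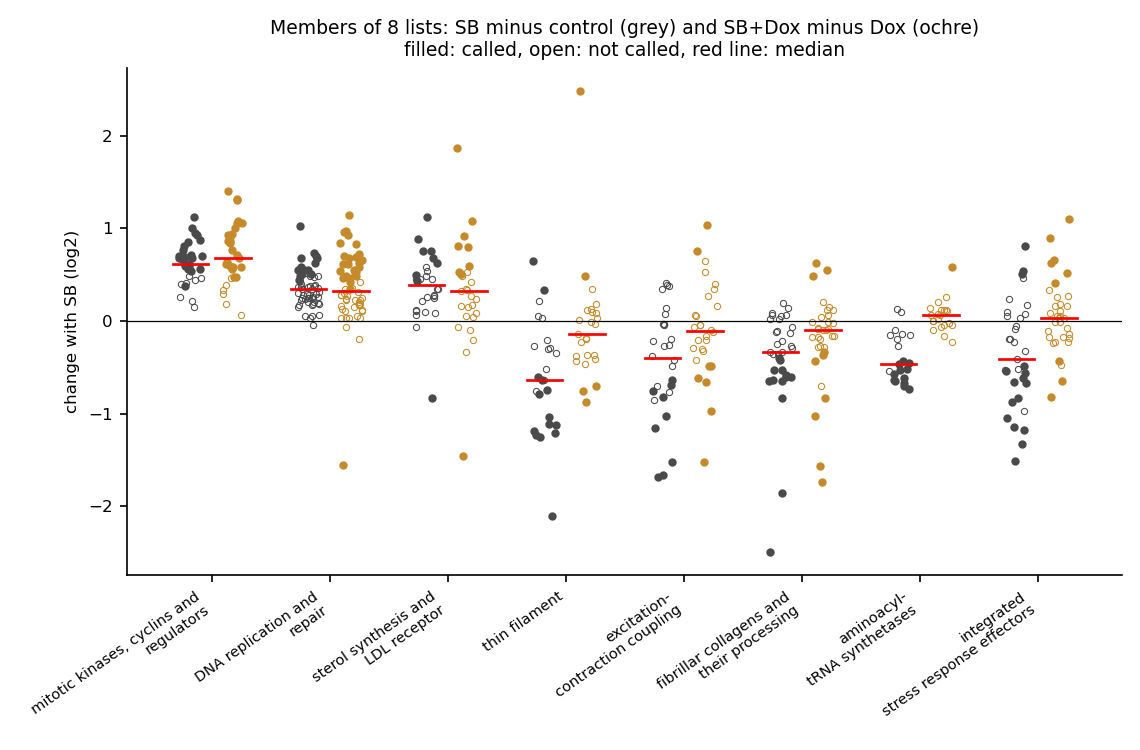
For 8 lists, each point is 1 measured member, with SB minus control in grey and SB+Dox minus Dox in ochre (log2); filled points were called, open points were not, and red lines are medians. The medians of the mitotic list are 0.62 and 0.68, whereas those of the tRNA synthetases are -0.46 and 0.07 and those of the thin filament -0.64 and -0.14.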

How the data were processed

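Total RNA of 12 samples was labelled for whole-transcript arrays of 1 colour. The authors summarised the arrays with RMA in Affymetrix Expression Console, per the submitters' processing notes, and deposited log2 values, 1 per transcript cluster and array; their versions are not given in the sources used here. Deposited values ran from 0.5 to 13.17 with 0 missing, and 0 pairs of arrays were identical. RMA brings arrays toward a common distribution, which can compress fold changes and hide shifts of all genes together.

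Symbols came from the platform annotation and were updated by Entrez identifier to RefSeq (21698 of 21789 clusters matched). With R 4.3.3 and limma 3.58.1, 1 mean per group was fitted over all 12 arrays (lmFit, eBayes), with contrasts for SB against control, SB+Dox against Dox and their difference, and Benjamini-Hochberg adjustment over 21789 clusters. A gene stands for its cluster with the highest mean over the 12 arrays. On data simulated for SB against control (21789 clusters, 50 changed at each size) the fit recovered 60% of 1.5-fold and 94% of 2-fold changes and called 8 of 21589 unchanged clusters. The simulated noise was normal and independent between clusters, and no simulated array stood apart. These figures may therefore not hold for the real arrays.

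The rule for named genes took Mapk14, Mapk11, Myod1 and Myog. It added the 12 largest called increases and the 12 largest called decreases without overlap between groups, leaving out predicted genes, microRNAs, other small RNAs and olfactory and vomeronasal receptors. From each list it took up to 4 called members with the largest change, or the largest change where none was called. The members, the 53 lists and the rule were chosen with earlier results of these data known. Alternatives were the replicate block, quantile normalisation, median centring, filters on dim clusters, a variance trend, array weights, every cluster of the array, the 6 compared arrays alone, and each array left out. Promoter and microRNA sequences are from RefSeq, GRCm38.p6.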

Additional observations from a re-analysis of the deposited data

Results flagged for a closer look

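For 22 of the named genes the change with SB203580 differed with doxycycline in the interaction test (limma, adjusted p under 0.05). The value given for each is the change in SB+Dox against Dox minus the change in SB against control, on the log2 scale. No explanation was tested for any of them.

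Most were lower in SB against control, and the second change was less negative or near 0. Among muscle genes the value was 1.48 for Myl4 (changes of -3.14 and -1.66), 1.66 for Tnnc1, 1.35 for Sorbs2, 1.05 for Jph2, 0.98 for Ankrd1, 1.16 for Cox6a2 and 0.61 for the channel gene Piezo1. Among matrix genes it was 1.78 for Col1a1, 1.8 for Aspn, 1.01 for Nid1, 0.92 for Has2 and 0.78 for Loxl4. Among amino acid genes it was 1.3 for Chac1 (-1.14 and 0.16), 1.2 for Bcat1 and 1.17 for Slc6a9. For Dclk1 it was 0.94. The kinase gene Cdk6, with 0.9, fell in SB against control and rose in SB+Dox against Dox (-0.51 and 0.39).

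The others moved the same way in both comparisons and further beside doxycycline. Ctrb1, with -2.52, fell in both (-2.13 and -4.64): it was at 10.2, 10.69 and 10.37 on the Dox arrays, above its control values of 7.47, 8.53 and 7.93, and at 5.7, 5.95 and 5.68 on the SB+Dox arrays. Mknk2 (0.65), Gas1 (0.92), Hadh (0.85) and Peg3 (1.1) rose in both. The call of Peg3 in SB against control was lost in 7 of the 12 fits that left out 1 array (limma, adjusted p = 0.0421 with all arrays and up to 0.157 without control replicate 3).

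Of the 22, only Chac1 and Ctrb1 were called in the interaction in each of the 12 fits that left out 1 array, with adjusted p-values up to 0.027 and 0.0112. Tnnc1 lost its call in 2 of the 12, Nid1 and Cdk6 in 3, Myl4 in 4, Aspn and Hadh in 5, and the other 14 in 8 to 11. When every cluster of the array was tested, none of the 22 was called in the interaction. After quantile normalisation 11 of the 22 were not called, with adjusted p-values from 0.0584 (Jph2) to 0.153 (Piezo1): Col1a1, Sorbs2, Mknk2, Ankrd1, Jph2, Piezo1, Loxl4, Gas1, Cox6a2, Slc6a9 and Bcat1.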

How the results depend on the processing

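The calls of SB against control, 1390 in all with 547 higher and 843 lower, moved by over 1.5 times with array weights (2794, 1142 and 1652) and when every cluster of the array was tested (876, 316 and 560). With arrays centred on their median 336 were higher. When 1 array was left out the counts ran from 779 to 1644 in all, from 277 to 582 higher and from 502 to 1062 lower. SB+Dox against Dox stayed within 1.5 times of its 2265 in every setting, 1614 to 2511 with 1 array left out. The interaction, with 195, was 678 with array weights, 6 with every cluster, 79 with quantile normalisation, 421 with the replicate block, 301 without clusters under the 50th percentile of mean signal, and 27 to 352 with 1 array left out. The cause was not tested; testing every cluster adds clusters to the adjustment, and leaving out an array leaves fewer samples.

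Same-numbered control and SB arrays correlated in their deviations at 0.219, -0.0841 and -0.0798, and control and SB arrays of unlike number at -0.3363 to 0.3435. Each deviation is taken from the mean of few arrays, so these values cannot decide whether the numbers pair these groups. Pairing was not tested. Same-numbered SB and SB+Dox arrays correlated at 0.436, 0.194 and 0.493, and those of unlike number at -0.4212 to 0.0733. Same-numbered Dox and SB+Dox arrays correlated at 0.0875, 0.282 and 0.148, and those of unlike number at -0.1719 to 0.0205. In both sets every same-numbered value lay above every unlike one. Control and Dox arrays correlated at 0.0076, 0.18 and 0.393, and at -0.3205 to 0.2418 where the numbers differed. The main fit held no term for the replicate number. With the replicate block 1781 clusters were called, 719 higher and 1062 lower, against 1390 in the main fit. Of 204 named genes, 202 were called and 153 kept their side of the threshold in each of the 21 alternatives that tested them (the filters at the 25th and 50th percentiles tested 201 and 189 of the 204); none changed direction. Lost calls were most frequent with every cluster (40), without SB replicate 2 (38) and without SB replicate 1 (31). The median change of all clusters was 0.028, -0.023 after centring and 0.014 after quantile normalisation. A low signal over background, such as that of Mir1a-1, limits what a fold can show.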

Other observations

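The lowest value of all in SB against control belonged to Gm5662, a predicted gene that the naming rule leaves out and that is named here after its value was seen. It was at 6.72, 7.17 and 7.75 on the control arrays and at 2.43, 2.94 and 2.67 on the SB arrays, a change of -4.54 ± 0.31 (limma, adjusted p = 2.14e-06). On the Dox and SB+Dox arrays it was at 7.16, 5.75 and 7.11 and at 2.55, 2.16 and 2.47, so it was lower with the inhibitor on both sets of arrays, without overlap. Nothing about its function was tested.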
